A study of Mus musculus with 12 samples.

Results

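Eph receptors and ephrins were compared between HER2-driven mammary tumors and benign mammary tissue of the mouse. The genes described are 6 Eph receptors (Epha1, Epha2, Epha4, Ephb2, Ephb3, Ephb4) and 4 ephrins (Efna1, Efna5, Efnb1, Efnb2), taken by name from the deposited table, which lists 16411 genes. All 10 were in the table and all 10 passed the filter on low counts. RNA of whole tissue was sequenced from 6 tumors and 6 benign samples of female transgenic mice of the genotype MMTV-Neu-NDL-YD5. The mice were on an FVB background and heterozygous for the transgene. The transgene is an activated Neu (rat HER2) under the MMTV promoter, which is active in mammary epithelium, and both groups carried it, with no treatment in either. Benign samples were mammary tissue without a visible tumor taken away from the tumor site, and the mice of the tumor group were not those of the benign group. Ages of single mice were not given in the sources used here.

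Eph receptors are the largest family of receptor tyrosine kinases, and their ligands, the ephrins, are themselves held at the cell surface. A-type ephrins are tethered by a lipid anchor and mostly bind EphA receptors, whereas B-type ephrins span the membrane and mostly bind EphB receptors, so that contact between cells can signal into both of them. The family is known for guiding axons, for setting tissue boundaries and for building vessels, where Ephb4 marks veins and Efnb2 arteries, and in the mammary gland it takes part in the growth and branching of the epithelium.

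The whole-table context was as follows. Libraries held 5240853 to 8170687 estimated reads in benign tissue and 6111393 to 8588567 in tumors, and 3 reads were worth 0.409 CPM (counts scaled to a common library total) on average. Erbb2, the mouse gene of the driving receptor, lay between 44.8 and 73.7 CPM in benign samples and between 1989 and 16634 CPM in tumors. The transgene is of the rat, and how far its reads were counted under the mouse gene was not tested. The summed level of 11 luminal epithelial markers was 994 to 2806 CPM in benign tissue and 2946 to 4906 CPM in tumors, and 7 of the 11 rose while 1, Krt19, fell. All 9 myoepithelial markers fell (sum 888 to 1935 against 61.3 to 159 CPM), as did all 10 endothelial markers (729 to 1430 against 102 to 125 CPM), all 6 adipocyte markers (7161 to 16603 against 8.39 to 87.6 CPM) and all 6 fibroblast markers (3281 to 7423 against 331 to 716 CPM). Of 4 macrophage markers, 3 fell (126 to 228 against 78.1 to 146 CPM). Of 5 Schwann cell markers, 2 rose and 2 fell (198 to 351 against 923.9 to 1278 CPM, most of it Sox10). Skeletal muscle markers were high in benign samples 3, 4 and 6 (summed 45658, 30381 and 77575 CPM) and at most 323 CPM in the other benign samples, and 5 lymphocyte markers summed to 590 CPM in benign sample 1 and to at most 6.88 CPM in every other sample. None of these marker genes was at 0 in every sample of a group. Where a result below moves with a marker list, the part of that cell type in it was not tested, and in whole tissue fewer cells of a type and less RNA per cell cannot be told apart.

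All 10 genes differed between tumors and benign tissue at an adjusted p under 0.1 (edgeR quasi-likelihood test, Benjamini-Hochberg over 13191 genes). The receptors Epha1, Epha2, Ephb3 and Ephb4 and the ligands Efna1 and Efna5 rose, whereas the receptors Epha4 and Ephb2 and the ligands Efnb1 and Efnb2 fell. Thus 6 of 10 were higher and 4 of 10 lower, beside a background of 28.2% of all tested genes called higher and 34.8% called lower. In 6 of the 10 the groups did not overlap: every tumor lay above every benign sample for Epha1, Epha2, Ephb3 and Ephb4 (14.7% of all tested genes) and below for Ephb2 and Efnb1 (21.2% of all tested genes). The median log2 fold change of the 10 was 0.67, and that of all tested genes was -0.06. At a threshold of 0.05, 4 of the 10 were higher and 3 lower, beside 3271 and 4159 of all 13191 genes tested. Efna1, Efna5 and Efnb2 were not called there. The remaining 7 genes kept their call at 0.1 when each of the 12 samples was left out in turn, although the adjusted p of Epha4 reached 0.0996 (edgeR).

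**Figure D1:**
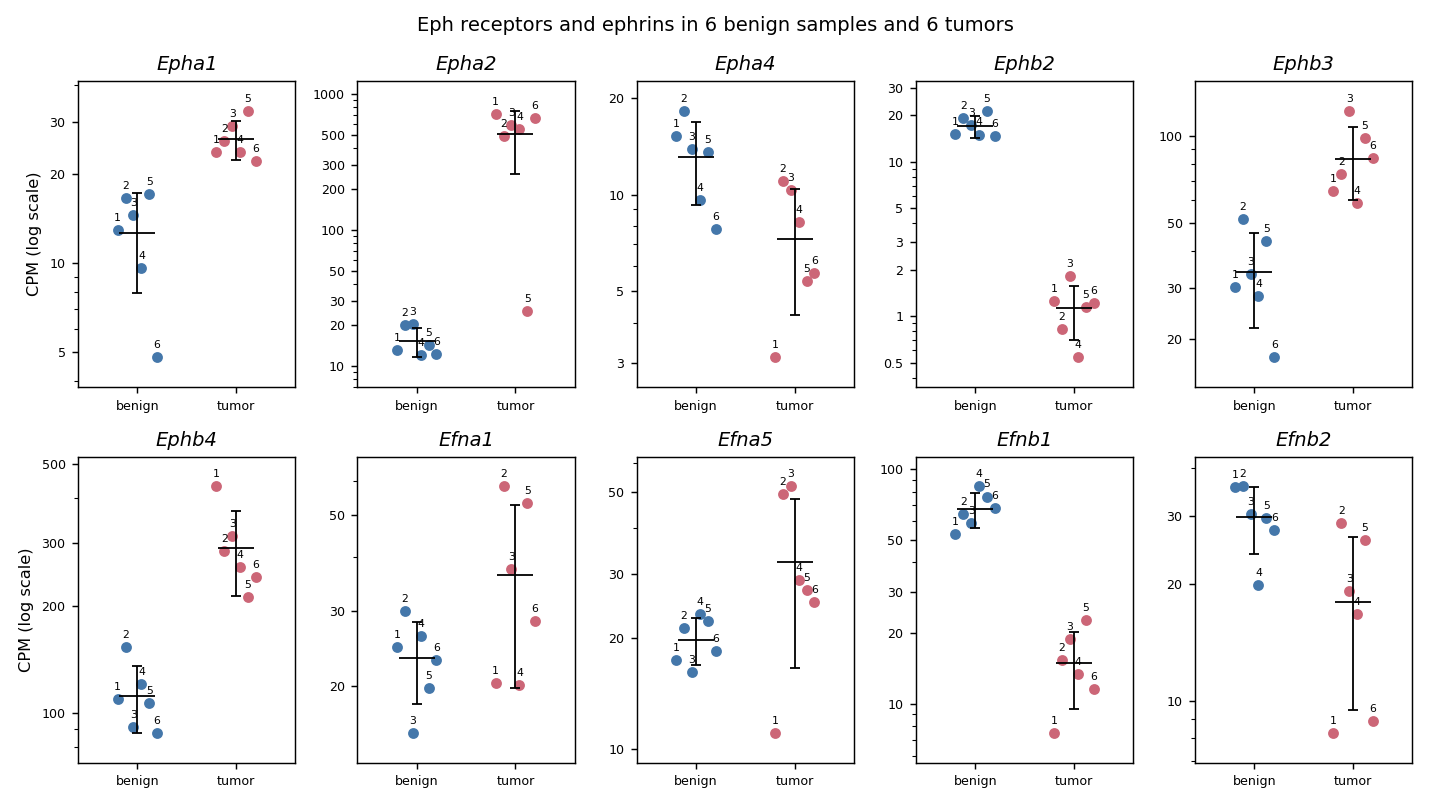
Level of each gene in CPM (log axis) in 6 benign samples (blue) and 6 tumors (red). Points are samples, numbered as replicates, and black bars are the mean ± SD of 6 samples. Tumor 5 stands at 25.2 CPM for Epha2, far below the other 5 tumors at 494 to 719 CPM, and the groups are apart for Epha1, Epha2, Ephb2, Ephb3, Ephb4 and Efnb1.

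To show the sequence in front of the genes that moved most, the 250 bases before the RefSeq transcription start (build GRCm38.p6, strand of the gene, 5′ to 3′) are given for the receptor with the largest rise, the receptor that was most abundant in benign tissue, the receptor with the largest fall and the ephrin with the largest fall. Capitals mark matches, on either strand, to the 5 motifs searched. Epha2 lies at chr4:141300971-141301220 (plus strand), Ephb4 at chr5:137349859-137350108 (plus strand), Ephb2 at chr4:136836013-136836262 (minus strand) and Efnb1 at chrX:99135811-99136060 (plus strand).
Epha2: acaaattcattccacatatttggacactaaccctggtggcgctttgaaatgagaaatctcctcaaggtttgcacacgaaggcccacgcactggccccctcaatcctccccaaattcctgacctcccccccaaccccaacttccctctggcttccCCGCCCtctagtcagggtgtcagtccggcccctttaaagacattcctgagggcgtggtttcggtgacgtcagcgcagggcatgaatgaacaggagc
Ephb4: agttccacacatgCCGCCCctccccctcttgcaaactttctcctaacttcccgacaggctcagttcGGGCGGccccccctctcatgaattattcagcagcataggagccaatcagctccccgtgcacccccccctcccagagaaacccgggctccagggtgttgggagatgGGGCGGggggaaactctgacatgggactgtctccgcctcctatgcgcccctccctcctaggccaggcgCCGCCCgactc
Ephb2: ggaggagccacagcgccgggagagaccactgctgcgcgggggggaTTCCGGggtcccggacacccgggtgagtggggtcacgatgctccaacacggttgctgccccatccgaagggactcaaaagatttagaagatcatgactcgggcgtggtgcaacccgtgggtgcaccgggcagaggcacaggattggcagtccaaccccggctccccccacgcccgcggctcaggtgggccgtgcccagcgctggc
Efnb1: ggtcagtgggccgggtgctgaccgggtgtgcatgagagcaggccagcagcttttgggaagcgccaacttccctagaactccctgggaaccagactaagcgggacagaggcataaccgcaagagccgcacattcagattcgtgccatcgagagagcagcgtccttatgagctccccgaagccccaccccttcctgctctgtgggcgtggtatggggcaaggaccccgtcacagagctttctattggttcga

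The capitals in Epha2 and Ephb4 are GC boxes (GGGCGG, the letters recognized by Sp factors), with 1 match in Epha2, 96 bases before the start, and 4 in Ephb4, of which the nearest lies 11 bases before it. The capitals in Ephb2 are an ETS core (CCGGAA) 205 bases before the start. Efnb1 held no match. The bases right after its RefSeq start were not found in a transcript of the gene, unlike those of Epha2, Ephb4 and Ephb2. With a match at any RefSeq start of a gene counted (Efna1 has 2), a GC box was found in 8 of the 10 genes, namely all 6 that rose and, of the 4 that fell, Epha4 and Efnb2, and in 32.7% of the 32851 RefSeq windows of the same length. The ETS core was found in 1 of 10 (12.03% of windows) and a TATA box (TATAAA) in 1 of 10, 30 bases before the start of Efnb2 (12.4% of windows). An AP-1 site (TGANTCA, 6.75% of windows) and an E-box (CACGTG, 6.02% of windows) were found in 0 of 10, which says only that these letters are not in these windows. The 10 windows were 54.4% to 74.8% G and C (median 65.2%), beside a median of 52.4% over all windows.

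Among the A-type receptors, Epha2 had the largest change of the family. Epha2 is a receptor of epithelial cells that binds Efna1. Benign samples held between 12.1 and 20.4 CPM (median 13.8). The tumors had 719, 494, 589, 550, 25.2 and 666 CPM in replicates 1 to 6. Thus 5 tumors were at a like high level and tumor 5 was near benign tissue, although it too was above every benign sample, by 1.23-fold over the highest. The mean rose from 15.4 ± 3.82 to 507 ± 249 CPM (SD, n = 6 each), a log2 fold change of 5.04 ± 0.60 (SE, adjusted p = 1.4e-05, edgeR). Without tumor 5 the log2 fold change was 5.35. The median of the other 5 tumors was 23.4 times the level of tumor 5.

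Erbb2, counted as the mouse gene, was at 6808 CPM in tumor 5, within the range of the tumors of 1989 to 16634 CPM. The part of Erbb2 in the low Epha2 level was not tested. Of the other A-type receptors that rose, Epha1 was higher in tumor 5 (32.7 CPM) than in any other tumor (22.2 to 29.1 CPM), whereas Epha7 was lower there (41.8 CPM) than in any other (72.9 to 121 CPM). Epha2 lies on chromosome 4 (GRCm38, 141301240 to 141329384, plus strand), and the genes of that chromosome were low in tumor 5 as a group. Relative to the median of the other 5 tumors, the median of 821 tested genes on chromosome 4 was -0.81 in tumor 5 (log2), and 88.4% of them were below 0. Epha2 itself was at -4.53, the third lowest of the 821. Of 20 tested genes within 500 kb of Epha2, 17 were below 0 in tumor 5, with a median of -0.89. The other gene of the set on that chromosome, Ephb2, was at -0.06 there, with only 9 reads behind it. DNA was not measured, and the part of the chromosome in the low Epha2 level was not tested.

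**Figure D2:**
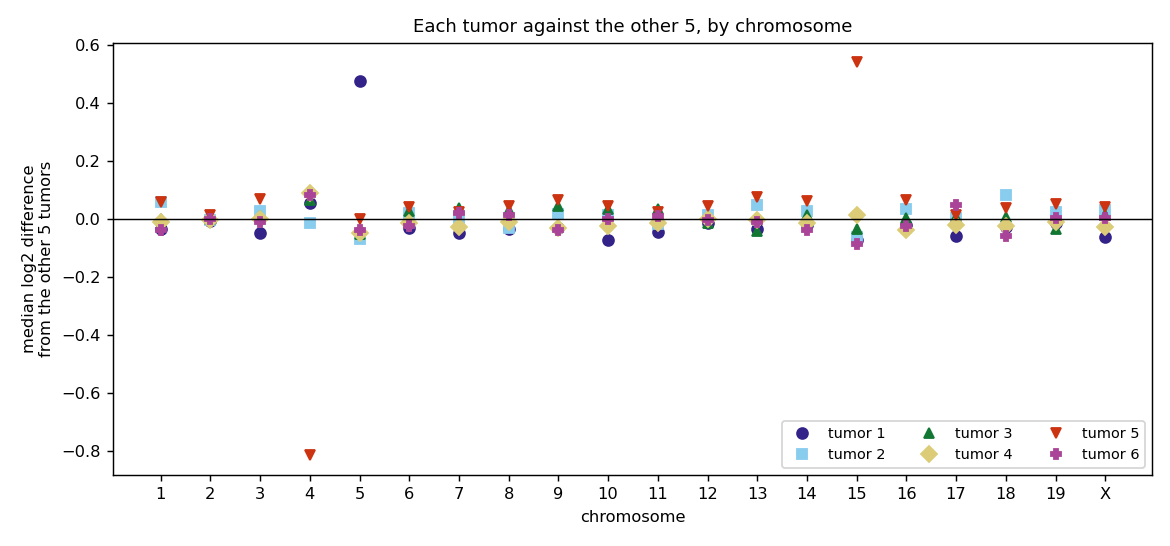
Median log2 difference of the tested genes of each chromosome between 1 tumor and the median of the other 5 tumors. Each point is 1 tumor on 1 chromosome, and tumor 5 on chromosomes 4 (-0.81) and 15 (0.54) and tumor 1 on chromosome 5 (0.48) lie outside the range of the other medians, -0.09 to 0.09.

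The genes whose pattern over the 12 samples was most like that of Epha2, by the smallest root mean square difference of centred log2 CPM, were A630077J23Rik (0.68), Cdhr1 (0.81), Oas1a (0.84), Ifi44 (0.84) and Igfbp5 (0.88). All 5 were lower in tumor 5 than in the other 5 tumors. Oas1a, for example, an antiviral enzyme gene, had 2.56 CPM in tumor 5 and 53.2 to 124 CPM in the others, and Igfbp5, which binds insulin-like growth factors, had 2493 against 12286 to 21874 CPM. Cdhr1, Oas1a, Ifi44 and Igfbp5 lie on chromosomes 14, 5, 3 and 1, respectively, and not on that of Epha2. A630077J23Rik, the most alike, was not placed on a chromosome here. These values describe the likeness that chose them and are no test.

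Epha1, an epithelial receptor of the same class as Epha2, rose as well. Its level was 4.79 to 17.1 CPM in benign samples (median 13.7) and 22.2 to 32.7 CPM in tumors (median 24.8). The tumors were tightly grouped, with a coefficient of variation of 15.3% beside 37.2% in benign tissue, where replicate 6 was lowest. Its log2 fold change was 1.05 ± 0.25 (SE, adjusted p = 0.0034, edgeR). Benign replicate 6 was also the lowest in Epha4, Ephb2, Ephb3 and Ephb4, hence in 5 of the 10 genes, and it had the lowest sum of luminal markers (994 CPM) and the highest sum of muscle markers.

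Epha4, best known from the nervous system and able to bind ephrins of both classes, went the other way. It lay between 7.81 and 18.3 CPM in benign samples (median 13.7) and between 3.11 and 11.002 CPM in tumors (median 6.97). The ranges overlapped, with 3 tumors below every benign sample and 4 benign samples above every tumor. The log2 fold change was -0.84 ± 0.31 (SE, adjusted p = 0.032, edgeR).

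Among the B-type receptors, Ephb4 had the highest level per kb of transcript in both groups. Its CPM lay between 87.7 and 153 CPM in benign samples (median 108) and between 212 and 432 CPM in tumors (median 271), with no overlap. The log2 fold change was 1.38 ± 0.19 (SE, adjusted p = 4.4e-05, edgeR). Ephb4 thus rose while all 10 endothelial markers fell. The highest tumor was replicate 1, at 432 CPM beside 314 CPM in the next. Ephb4 lies on chromosome 5 (137350109 to 137378669, plus strand), whose 815 tested genes had a median of 0.48 in tumor 1 relative to the other tumors (log2), with 81.1% of them above 0, and Ephb4 was at 0.75, 155th from the top. Without that tumor the call held.

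Ephb3, a receptor of epithelial compartments such as the intestinal crypt, rose likewise. It lay between 17.2 and 51.8 CPM in benign samples (median 31.8) and between 58.5 and 122 CPM in tumors (median 78.8), so that each tumor was above each benign sample. Its rise on the log2 scale was 1.29 ± 0.25 (SE, adjusted p = 7.6e-04, edgeR).

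Ephb2, a close relative of Ephb3 in the same class, had the largest fall. It lay between 14.6 and 21.4 CPM in benign samples (median 16.1) and between 0.54 and 1.81 CPM in tumors (median 1.18). The tumor values rested on 4 to 15 reads each, above the 3 reads taken as the floor, and the benign values on 81 to 171 reads. Mean levels were 17.0 ± 2.76 and 1.13 ± 0.43 CPM (SD, n = 6 each), 15.1-fold lower in tumors, and the log2 fold change was -3.89 ± 0.26 (SE, adjusted p = 7.4e-08, edgeR). Every tumor was far below every benign sample. The genes most like Ephb2 over the 12 samples were Sparc (root mean square difference 0.21), Nid1 (0.27), Gpx7 (0.28), Dnm1 (0.28) and Kif26a (0.29). Sparc is a matrix protein and Nid1 a basement membrane protein, and they fell by 3.72 and 3.50 on the log2 scale.

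Of the A-type ligands, Efna1, the main partner of Epha2, was between 15.6 and 30.0 CPM in benign samples (median 23.9) and between 20.1 and 58.3 CPM in tumors (median 32.9). Tumors 2, 3 and 5 were above every benign sample, and tumors 1, 4 and 6 were within the benign range. Efna1 rose with a log2 fold change of 0.65 ± 0.28 (SE, adjusted p = 0.064, edgeR). The call was lost without benign replicate 3 (adjusted p = 0.125), benign replicate 5 (0.112) or tumor replicate 2 (0.120), and over the alternatives tried the adjusted p reached 0.218.

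Efna5, a ligand known from the mapping of nerve connections, was between 16.2 and 23.3 CPM in benign samples (median 19.9). The tumors had 11.1, 49.2, 51.8, 28.9, 27.1 and 25.1 CPM in replicates 1 to 6. Thus 5 tumors were above every benign sample and tumor 1 was below every one. The log2 fold change was 0.70 ± 0.30 (SE, adjusted p = 0.061, edgeR). The call was lost without benign replicate 3 (adjusted p = 0.110), tumor replicate 2 (0.108) or tumor replicate 3 (0.107), and the adjusted p reached 0.189 over the alternatives.

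Of the B-type ligands, Efnb1, an X-linked gene with a part in skeletal and craniofacial patterning, was between 53.0 and 84.4 CPM in benign samples (median 66.3) and between 7.47 and 22.8 CPM in tumors (median 14.3). The groups were well apart, and mean levels differed 4.55-fold. Its log2 fold change was -2.18 ± 0.23 (SE, adjusted p = 4.7e-06, edgeR).

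Efnb2, the arterial ligand of Ephb4, was between 19.95 and 35.8 CPM in benign samples (median 30.0) and between 8.25 and 28.7 CPM in tumors (median 18.0). Tumors 1 and 6 were lowest, at 8.25 and 8.89 CPM, whereas tumors 2 and 5 lay within the benign range. The log2 fold change was -0.73 ± 0.30 (SE, adjusted p = 0.051, edgeR). The call was lost without benign replicate 1 or 2 or tumor replicate 1, 4 or 6, with adjusted p between 0.110 and 0.129 (edgeR). Tumor 1 was the lowest tumor in 4 of the 10 genes, namely Epha4, Efna5, Efnb1 and Efnb2, and the highest in Epha2 and Ephb4.

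**Figure D3:**
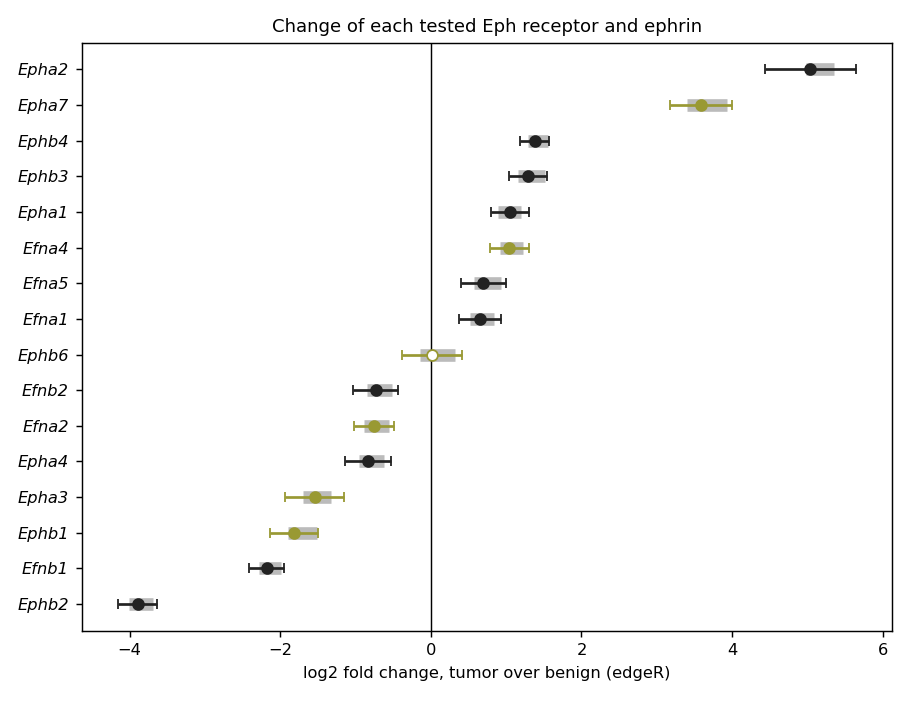
Log2 fold change of tumors over benign tissue for the 16 tested genes of the family, with SE from edgeR, n = 6 per group. Black marks the 10 genes described and olive the 6 other family genes, filled circles are called at an adjusted p under 0.1, and grey bands span the fits that each leave out 1 sample. Epha2 (5.04) and Epha7 (3.59) lie highest and Ephb2 (-3.89) lowest, and only the circle of Ephb6 is open.

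The rest of the family, 12 genes by name, was mostly of low abundance. Of these 10 were in the table and 6 passed the filter, with 2 higher (33.3% beside 28.2% of all tested genes), 3 lower (50% beside 34.8%) and 1 not called. Epha7, another A-type receptor on chromosome 4, rose most of these, from 2.14 to 13.3 CPM in benign samples to 41.8 to 121 CPM in tumors (log2 fold change 3.59 ± 0.42, SE, adjusted p = 1.1e-05, edgeR). Its lowest tumor was replicate 5, as for Epha2. The A-type ligand Efna4 rose from a mean of 5.59 ± 2.29 to 11.6 ± 1.94 CPM (SD, n = 6 each). The receptors Epha3 and Ephb1 fell by 1.54 and 1.82 on the log2 scale, and the ligand Efna2 by 0.76. Ephb6, a receptor without kinase activity, differed little in mean (17.5 ± 8.24 and 17.7 ± 10.3 CPM, SD, n = 6 each), with a log2 fold change of 0.02 ± 0.40 (SE, adjusted p = 0.978, edgeR). Epha5, Epha8, Efna3 and Efnb3 were below the filter, with at most 33 reads in any sample. Under a stricter filter of 10 counts in each sample, which tests fewer genes, 1 in place of 3 was lower. Of all 11227 genes tested under that filter, 3247 were lower.

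Divided by transcript length (CPM per kb of the longest protein-coding transcript), the levels can be set side by side between genes. In benign tissue Ephb4 was the leading receptor at 25.7 ± 5.48 CPM per kb (SD, n = 6), above Ephb3 in second place at 7.16 ± 2.56. Ephb3 and the receptors that follow it (Ephb6 at 4.65 ± 2.19, Epha2 at 3.93 ± 0.98 and Epha1 at 3.85 ± 1.43) had overlapping ranges. In tumors Epha2 led at 130 ± 63.7 CPM per kb, ahead of Ephb4 at 66.9 ± 18.0 and Ephb3 at 17.6 ± 4.96. The ranges of Epha2 and Ephb4 overlapped only through tumor 5, where Epha2 was at 6.44 CPM per kb. Ephb4 made up 44.5% to 57.6% of the summed receptor level in benign samples, and Epha2 made up 53.2% to 64.0% in 5 tumors and 6.59% in tumor 5, where Ephb4 led with 49.97%. The summed level of 12 receptors was 36.0 to 71.6 CPM per kb in benign samples and 97.7 to 323 in tumors, tumor 5 being the lowest tumor.

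The ephrins differed from the receptors in this. Their summed level over 8 genes was 44.9 to 62.1 CPM per kb in benign tissue, and the tumors spanned a wider range on both sides, 28.4 to 66.8. The order changed within that sum. Efnb1 led in benign tissue (20.7 ± 3.52 CPM per kb, SD, n = 6), ahead of Efna1 (14.2 ± 3.08), although the ranges met, and in tumors Efna1 led (22.3 ± 10.1) and Efnb1 was the fourth (4.56 ± 1.66), behind Efna5 and Efna4. The median share of Efnb1 was 40.7% in benign tissue and 9.93% in tumors, and that of Efna1 was 28.0% and 45.3%. With the median in place of the longest transcript length, the leading receptor and ephrin of each group were unchanged and Efnb1 was the fifth ephrin in tumors. The order of the receptors after Ephb3 in benign tissue did not hold, as Epha4 moved from rank 6 to rank 4 (2.06 to 6.18 CPM per kb) and Epha2 from rank 4 to rank 7, and Ephb3 went from 7.16 to 13.9 CPM per kb.

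**Figure D4:**
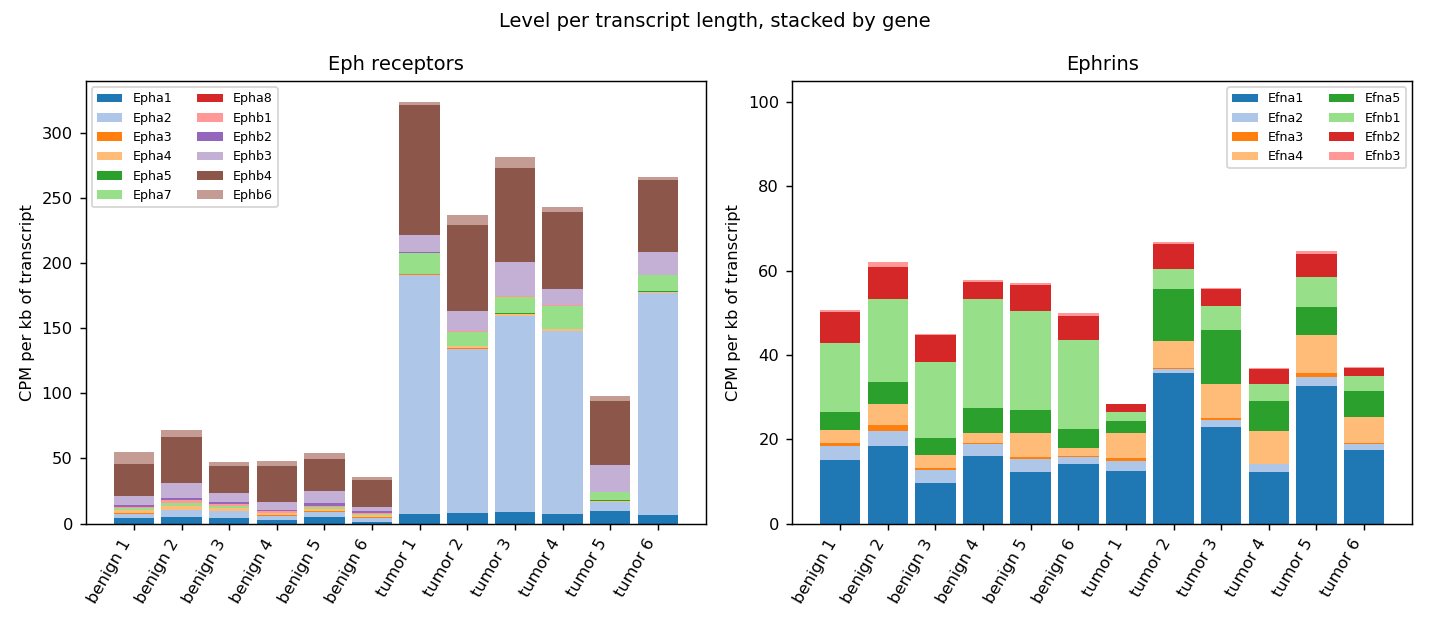
Level per kb of the longest transcript (CPM per kb, linear axes from 0) of each Eph receptor (left) and ephrin (right), stacked by gene in the 6 benign samples and 6 tumors. Summed receptors reach 97.7 to 323 CPM per kb in tumors against 36.0 to 71.6 in benign samples, Epha2 is the largest block in every tumor but tumor 5, and the ephrin sums overlap.

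The balance of ligand and receptor was compared within each sample for 3 pairs, as the log2 ratio of their CPM with 2 counts added. The scaling between samples cancels in this ratio apart from the added counts, which matter most where reads are few. The log2 ratio of Efna1 to Epha2 was 0.59 ± 0.53 in benign samples and -3.40 ± 2.30 in tumors (SD, n = 6 each), a difference of -3.99 (two-sided exact permutation test, p = 0.013, adjusted over the 3 pairs 0.013). It was -5.12 to -3.08 in 5 tumors and 1.07 in tumor 5, within the benign range of -0.39 to 1.09. Efnb2 to Ephb4 was -1.89 ± 0.39 in benign samples and -4.10 ± 0.97 in tumors, with no overlap (difference -2.21, exact p = 0.00216, the smallest this design allows, adjusted 0.00649). Efnb1 to Ephb2 moved the opposite way, from 1.97 ± 0.30 to 3.41 ± 0.68 (difference 1.44, exact p = 0.00433, adjusted 0.00649), since Ephb2 fell further than Efnb1. Ephb2 rested on 4 to 15 reads in tumors, and with 0.5 added counts the difference was 1.66. The ratio of ligand to receptor was thus lower in tumors for Efna1 to Epha2 and Efnb2 to Ephb4 and higher for Efnb1 to Ephb2. Without benign samples 3, 4 and 6 the adjusted p of Efna1 to Epha2 was 0.0595 (exact permutation test), with the difference at -4.04.

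Since tumors held more luminal and less endothelial marker RNA, each gene was also set against the mean log2 level of those markers in the same sample. The mean of the luminal markers was 0.49 higher in tumors on the log2 scale. Its groups overlapped, at 5.75 to 7.42 in benign samples and 6.37 to 7.70 in tumors. That mean includes Krt19, with a log2 fold change of -4.74, whereas the median log2 fold change of the 11 luminal markers was 1.14. Differences relative to this mean therefore depend on the markers in it. The mean of the endothelial markers was 3.36 lower on the log2 scale. Relative to the luminal markers, the difference between tumors and benign tissue was -4.16 for Ephb2, -2.72 for Efnb1 and -1.37 for Epha4. These groups did not overlap, in 3 of 10 genes beside 15.8% of all tested genes. Epha2 was 4.04 higher and overlapped benign samples through tumor 5. Ephb4 (0.87 higher), Ephb3 (0.83) and Epha1 (0.65) overlapped as well, and 0 of 10 lay above without overlap (3.46% of all tested genes). The difference of Efnb2, -1.34, was close to that of Epha4, but its groups overlapped. Efna1 and Efna5 differed by 0.05 each. Relative to the endothelial markers 9 of 10 were higher in tumors without overlap, as were 84.8% of all tested genes, and none was lower without overlap (1.47%). Ephb2 was the exception, with a difference of -0.30 and overlapping groups. This likeness was not particular to endothelial markers. The median log2 fold change was -3.36 for endothelial, -3.80 for fibroblast and -4.35 for myoepithelial markers, beside -3.89 for Ephb2. It was -8.54 for adipocyte and -0.65 for macrophage markers. The genes were not set against these other lists, and the cell type behind the fall of Ephb2 was not tested.

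**Figure D5:**
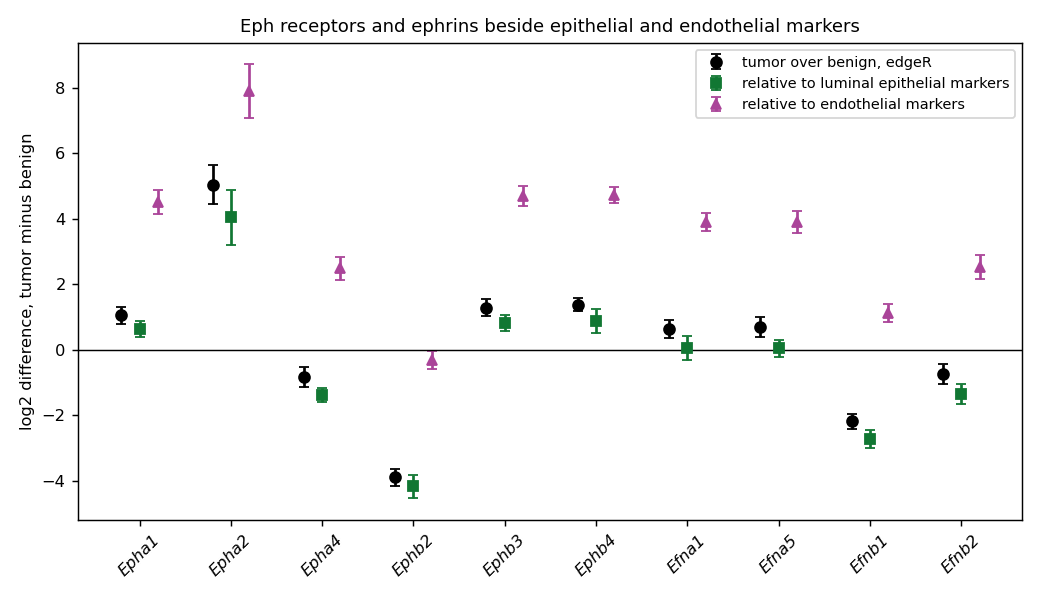
Difference between tumors and benign tissue (log2) of each gene by edgeR (black, with SE), relative to the mean of 11 luminal epithelial markers (green) and relative to the mean of 10 endothelial markers (purple). Bars on the green and purple points are the standard error of a difference of means, n = 6 per group. The fall of Ephb2 is -3.89, -4.16 and -0.30 on the 3 scales, and the rise of Ephb4 is 1.38, 0.87 and 4.73.

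Downstream, 3 lists of genes taken to act with Eph receptors or ephrins, directly or not, were followed. Of 31 tested adaptors, kinases and exchange factors, 20 were higher (64.5%), 5 lower (16.1%) and 6 not called, beside 28.2% and 34.8% of all tested genes. The median log2 fold change was 0.61 beside -0.06 over all genes. The largest rises were in Grip1, a PDZ protein that binds B-type ephrins (3.16), Arhgef19 (2.89) and Ngef, the ephexin that acts at EphA receptors (2.82). The largest falls were in Arhgef15, an exchange factor of vessels (-3.75), Rgs3, which couples B-type ephrins to G proteins (-2.67), and Sh2d3c (-1.78). Ngef went from 6.43 ± 2.07 to 45.5 ± 7.58 CPM and Rgs3 from 99.1 ± 22.5 to 15.5 ± 1.99 CPM (SD, n = 6 each).

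Of 17 genes of the cytoskeleton list, 7 were higher and 7 lower (41.2% each, beside 28.2% and 34.8% of all tested genes), with a median log2 fold change of 0.00 beside -0.06 over all genes. Leaving out benign samples 3, 4 and 6, whose muscle markers were high, 4 of the 17 were lower, beside 3906 of all 13604 genes tested there. The largest rises were in Chn2 (3.89), the kinase Pak1 (1.52) and the membrane linker Ezr (1.30). The largest falls were in the kinase Limk1 (-1.22), Chn1, the chimaerin that acts at EphA4 (-1.08), and the kinase Rock2 (-0.99). The related chimaerins Chn1 and Chn2 thus moved in opposite directions, Chn2 from 6.64 ± 0.79 to 99.1 ± 53.4 CPM and Chn1 from 25.5 ± 9.25 to 12.02 ± 4.77 CPM (SD, n = 6 each).

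Of 15 listed proteases and phosphatases, 6 were higher (40% beside 28.2% of all tested genes) and 7 lower (46.7% beside 34.8%). The median log2 fold change was 0.19 beside -0.06 over all genes. Whether each of them acts directly on Eph receptors or ephrins was not examined here. The phosphatases Ptprf (2.01) and Ptprj (1.93) and the protease Furin (0.88) rose most, and the matrix proteases Mmp2 (-3.05) and Mmp9 (-2.77) and the gamma-secretase subunit Psen2 (-2.05) fell most. Of the genes of these lists and the family that lie on chromosome 4, Epha2, Epha7, Arhgef16, Arhgef19, Sdcbp, Cdc42 and Ptprf were lowest in tumor 5, and Ephb2, Rgs3 and Rhbdl2 were not. Ptprf was at 263 CPM in tumor 5 beside 768 to 1049 CPM in the other tumors.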

How the data were processed

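RNA of whole tissue was sequenced as poly A-enriched, directional, paired-end libraries from 6 tumors and 6 benign samples. According to the submitters' processing notes and the study's methods, the authors trimmed reads with Trim Galore, quantified them with Salmon against mm10 and deposited estimated counts per gene, not normalized. The smallest sum of a listed gene over all samples was 5. Tool versions were not given in the sources used here. Counts per gene estimated from transcripts can move with shared sequence between related genes.

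Here the estimated counts were cut to whole numbers, with any fraction dropped, and tested with edgeR 4.0.16 in R 4.3.3. The filter was filterByExpr with a minimum count of 10 and a minimum total of 15, and the scaling was TMM. The quasi-likelihood test was two-sided, with Benjamini-Hochberg over the 13191 genes tested. Genes were called at an adjusted p under 0.1, as in the study's methods. CPM use TMM library sizes, and log2 CPM adds 2 counts. Depth was 5240853 to 8588567 reads per sample, and the common biological coefficient of variation was 0.351. Replicates of a group differed beyond counting noise (chi-square per degree of freedom at least 13.0). Samples were grouped by their titles, and 0 columns lacked a sample. Named genes were all 10 genes, the other Eph receptors and ephrins, the 3 largest rises and 3 largest falls of each of 3 pathway lists, and the 5 genes most like the strongest riser and faller. The genes and the lists were chosen with earlier results of these data known. Tables of names, positions and transcript lengths came from GENCODE and RefSeq on GRCm38, the same build as mm10, and 12988 tested genes were placed on a chromosome. Epha6 and Epha10 were absent from the deposited table and hence not analysed here. Ligand to receptor ratios were compared with exact permutation tests, or with exact sign flips in the block by replicate number. Alternatives were DESeq2 1.42.0, other scalings and filters, a stricter threshold (0.05), leaving out samples, and a block by replicate number. The fit was tested on simulated counts.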

Additional observations from a re-analysis of the deposited data

Results flagged for a closer look

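Epha2 in tumor 5 stood apart from the other tumors. Its level was 25.2 CPM, whereas the other 5 tumors had 494 to 719 CPM. On the log2 scale the gap to the nearest tumor was 0.888 of the whole range of the 6 tumors, above Dixon's 95% critical value for 6 samples. The 10 genes gave 20 groups of 6 samples, and 1 group was singled out in this way, where chance alone flags about 1 group in 20. Without tumor 5 the log2 fold change of Epha2 was 5.35 in place of 5.04, and the call held.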

How the results depend on the processing

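The calls of Epha1, Epha2, Epha4, Ephb3, Ephb4 and Efnb1 held under all 20 alternatives tried for each, and that of Ephb2 under the 19 that tested it. Efna1, Efna5 and Efnb2 each lost the call under 5 of 20. No gene changed direction. With at least 10 counts in every sample, 1 instead of 3 of the other Eph and ephrin genes was lower, since fewer genes were tested. Without benign samples 3, 4 and 6, 4 instead of 7 of the 17 cytoskeletal genes were lower, beside 3906 of all 13604 genes tested. The difference of Efna1 to Epha2 was then -4.04 (adjusted p = 0.0595, exact permutation test). Over the fits that each left out 1 sample, 4 to 6 of the 10 genes were higher and 3 to 4 lower. Of the 13276 to 13379 genes tested in those fits, 3539 to 4188 were higher and 4208 to 4551 lower. Tumors and benign samples came from different mice, and deviations of samples with the same number were correlated at -0.124 to 0.103, with 0 of 6 benign samples correlating best with their own number, so the numbers were not taken as pairs. With the replicate number as a block, Efna1 (adjusted p = 0.131) and Efna5 (0.143, both edgeR) lost their calls. Efna1 to Epha2 was -3.99 there (adjusted p = 0.0625, exact test by sign flips of the 6 differences between samples of the same number). Sign flips allow fewer arrangements than the regrouping of samples, so the p of this test cannot become as small. The median log2 fold change of all genes moved by 0.10 under the filter of 10 counts per sample and by at most 0.09 under the other alternatives. The cause of these changes was not tested beyond the smaller numbers of genes and samples. Depth limits most the genes with few reads, such as Ephb2 in tumors.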
